A study of Bos taurus with 21 samples.

Results

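The core numbered miRNAs are the rows of a serum small RNA table that carry no known bovine miRNA name and were read in every cow of the study. A row belonged to this core when its name did not begin with bta-, its value was above 0 in all 21 samples and its values were not identical to those of another such row. Of 847 rows, 549 were numbered and 298 carried a known name. Of the numbered rows, 147 were above 0 in all 21 samples; 16 of them had identical values to another and 1, row 4_9843, was left out by name. The remaining 130 rows, 23.7% of the numbered rows, are described here. Whether a value exceeded 0 chose the members, so their presence in every cow is a description and not a finding.

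Small RNA was sequenced from serum extracellular vesicles of 7 healthy cows, 7 cows with subclinical mastitis and 7 cows with clinical mastitis. The labels give each sample only its condition, serum as its tissue and a number. Age, breed, infecting organism and how vesicles were isolated are not given in the sources used here. Nothing in the labels says that the samples came from separate herds, days or batches, so p-values measure the spread between these samples.

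MicroRNAs are short RNAs cut from hairpin precursors that guide Argonaute proteins to messenger RNAs and lower their translation or stability. Extracellular vesicles are membrane-bound particles that cells release into body fluids, and they carry miRNAs and other small RNA fragments in blood. Mastitis is inflammation of the udder, visible in milk or udder in its clinical form and detected only by laboratory signs, such as a raised milk cell count, in its subclinical form. A numbered row is named by a chromosome name and a running number. The table pairs it with no sequence, so no gene name, seed or function was given to any row. Serum vesicles are a bulk sample, in which fewer vesicles of a kind and less RNA per vesicle cannot be told apart.

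Core rows came from all over the genome by name. They carried 33 of the 37 chromosome names found among numbered rows. Of the 130, 119 bore the name of an autosome, and each of the 29 cattle autosomes had 1 to 9 of them. A further 7 bore the name X, 1 (MT_46829) the name MT and 3 the name of an unplaced scaffold. The running numbers ascend with the chromosome name, so they order rows but give no position.

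Values in the table are signals, in reads per 1000000, with a separate scale in each library for known and for numbered rows. A signal is thus scaled to a cow's numbered rows and not to its whole library. Numbered signals summed to more than 1000000 in every library, from 1087136 in clinical 1 to 1184464 in subclinical 3. The total used for scaling was thus smaller than the reads summed over rows, for a reason that was not tested. Whole reads were recovered from the values. Numbered reads ran from 13033 in healthy 7 to 50212 in clinical 5, and core rows held 7409 to 25211 reads per library, with the same libraries at the ends. Depth differed by group: numbered reads averaged 27136 ± 6643 in healthy, 26825 ± 3645 in subclinical and 42325 ± 5757 in clinical libraries (SD, n = 7 each). All reads here and below are those summed over the known and numbered rows, not everything that was sequenced. Known reads took 11.2% ± 9.1 of all reads in healthy, 35.2% ± 13.97 in subclinical and 15.9% ± 17.9 in clinical libraries (SD, n = 7 each). Healthy 7 (30.4%) and clinical 7 (52.8%) held the highest known share of their groups. Among known reads, red cell miRNAs took 0.365 to 2.61%, and the platelet and leukocyte markers miR-223 and miR-142 took 1.23 to 6.40%. Endothelial miR-126 took 3.11 to 38.6%. Hepatocyte miR-122 was read in 3 healthy, 7 subclinical and 3 clinical libraries. Known reads had medians of 2190, 15960 and 3388 in these groups, so these numbers of libraries are not like for like.

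Core rows held 49.9% ± 5.8 of all reads in healthy, 34.8% ± 8.6 in subclinical and 42.9% ± 9.3 in clinical cows (SD, n = 7 each). Core reads outnumbered known reads in 16 of 21 libraries. Their share of the numbered signal was 50.4 to 60.4% in healthy cows with a median of 56.8%, 49.2 to 57.3% with a median of 52.5% in subclinical cows, and 48.8 to 55.1% with a median of 50.2% in clinical cows. The groups overlapped, and their means were 56.2% ± 3.2, 53.6% ± 3.4 and 51.0% ± 2.2 (SD, n = 7 each). The place of the clinical group depended on a single row that is not a member. Row 4_9843 took 30.9% ± 3.3, 30.5% ± 4.1 and 39.3% ± 2.8 of the numbered signal in healthy, subclinical and clinical cows. With that row left out of the total, the core share was 81.4% ± 3.2, 77.2% ± 4.7 and 84.1% ± 2.5, so clinical cows then had the highest mean, while healthy cows stayed above subclinical cows. Numbered rows outside the core, without 4_9843, took 12.9% ± 2.4, 15.96% ± 3.8 and 9.65% ± 1.76. Since the members were chosen on these samples, no test was made of these shares.

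**Figure D1:**
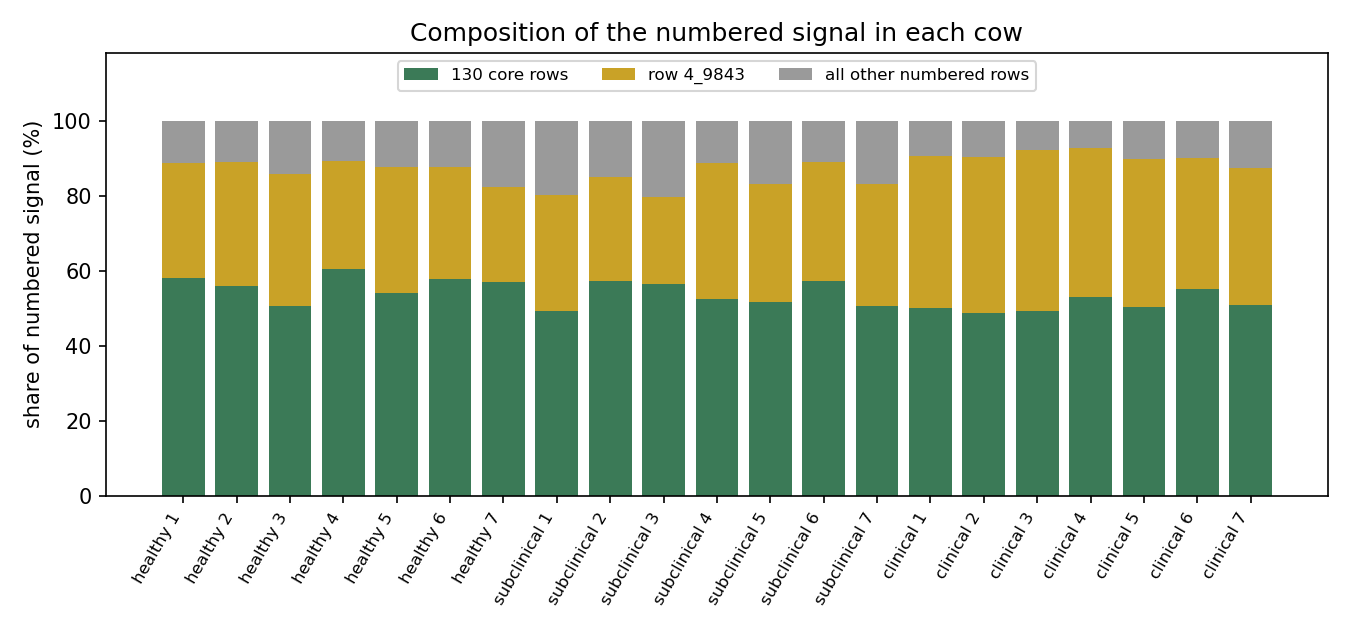
Stacked bars give the share of the numbered signal (%) of each of the 21 cows held by the 130 core rows (green), by row 4_9843 (gold) and by all other numbered rows (grey). The core share lies between 48.8 and 60.4% in every cow, and the gold part is larger on average in clinical cows (39.3%) than in healthy cows (30.9%).

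The core was dominated by few rows. The 10 highest core rows of each library, which can differ between libraries, took most of its core signal. Their share was 60.2% ± 2.0 in healthy, 55.8% ± 2.2 in subclinical and 58.3% ± 4.8 in clinical cows (SD, n = 7 each). Mean signal over the 21 cows was at least 10000 in 15 rows, from 1000 to 10000 in 54 and below 1000 in 61. The median of the row means was 1264. In all, 358182 reads fell on core rows. Only 14 rows had at least 100 reads in every library, and 64 had at least 10. In 27 rows, the lowest library held 1 read.

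Row NKLS02002111.1_47333, on an unplaced scaffold, was the most abundant core row in 19 of 21 libraries. Its signal was 71933 to 124337 in healthy cows (median 98070), 43734 to 112450 in subclinical cows (median 77706) and 68436 to 105169 in clinical cows (median 77507). The ranges overlapped in all 3 groups. Its neighbour by name, NKLS02002111.1_47339, was 7.02 to 26.01 times lower in reads and did not move with it (Spearman's rho −0.18 over 21 cows, as a description). The other libraries were led by X_46560 and 21_37337, in 1 library each.

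Row X_46560 was the second most abundant and had the lowest coefficient of variation between cows (15.5%) on the deposited scale. It read 48392 to 62858 in healthy (median 57813), 42690 to 71582 in subclinical (median 51736) and 34723 to 57890 in clinical cows (median 49270). Its highest cow was 2.06 times its lowest. Row 21_37337 spread more, with 39663 to 95125 in healthy (median 47564), 27999 to 70452 in subclinical (median 41847) and 16247 to 53683 in clinical cows (median 30593). Its healthy values lay mostly above its clinical ones, but the highest clinical cow exceeded the healthy median. Rows 13_25923, 25_40739, 19_34861 and X_45603 completed the steady part of the 10, with mean signals of 27361, 16463, 16133 and 15481 and highest values 1.92 to 2.22 times the lowest.

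Rows 19_34101 and 3_7619 moved together across cows. Row 19_34101 read 9091 to 48956 in healthy cows (median 33551), 14985 to 42019 in subclinical cows (median 21400) and 14992 to 47539 in clinical cows (median 30367). Healthy 7 and clinical 7 were the lowest cows of their groups for both rows. The ratio of their reads stayed between 1.30 and 1.76 in all 21 libraries (median 1.51, rho 0.97).

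**Figure D2:**
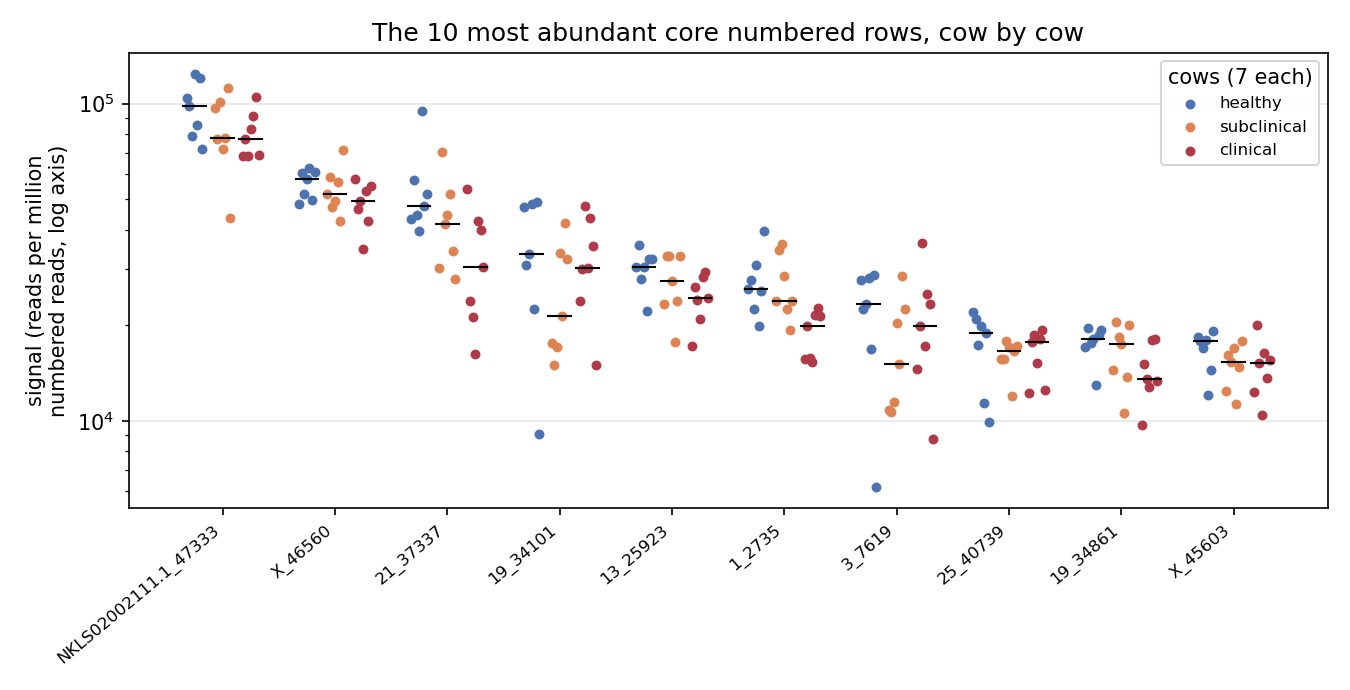
Each dot is 1 cow's signal (reads per 1000000 on the numbered scale, log axis) for the 10 core rows with the highest mean. The 7 healthy, 7 subclinical and 7 clinical cows stand side by side, with a bar at each group's median. Groups overlap in every row shown, and NKLS02002111.1_47333 is highest by median in all 3 groups.

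At the edge of the core, membership turned on single reads. The 3 weakest members were 4_8108 (91 reads over all libraries, mean signal 164.1), 1_1031 (102 reads, 179.7) and X_45756 (103 reads, 183.5), each with 1 read in at least 1 library. Just outside, 40 numbered rows were at 0 in exactly 1 library. The most abundant of these were 3_6921 (1673 reads, 0 in healthy 3), 23_38644 (538 reads, 0 in subclinical 4) and 14_28121 (482 reads, 0 in healthy 1). These rows are more abundant than many members, and the single library at 0 was subclinical 2 for 11 of the 40.

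The spread of core rows between cows, which includes the differences between groups, was set beside the spread that read counting alone gives. The median coefficient of variation over 21 cows was 47.6% (quartiles 30.3 and 65.4%), against a median of 17.8% from counting alone. The ratio of the variance between cows to the counting variance had a median of 5.89; it exceeded 10 in 44 rows and was under 2 in 7. Abundant rows were steadier: the median coefficient was 22.9% in rows with a mean of at least 10000, where counting gives 4.798%. It was 58.9% in rows below 1000, where counting gives 30.2%.

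The 5 rows of lowest coefficient were X_46560 (15.5%), 3_7152 (16.9%), X_45603 (17.4%), 13_25977 (17.9%) and 13_25923 (19.4%). With numbered rows scaled without 4_9843, 3_7152 was lower (14.3%) than X_46560 (15.8%), and 3_7152 also had the smaller ratio of highest to lowest cow (1.82). Rows 3_7152 and 13_25977 were of middling abundance, with group means of 4409 ± 654, 4082 ± 813 and 3823 ± 565 for the former and 4326 ± 684, 3814 ± 547 and 3612 ± 747 for the latter (healthy, subclinical and clinical, SD, n = 7 each). In all, 20 rows had a coefficient under 25% and 8 had one over 100%.

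**Figure D3:**
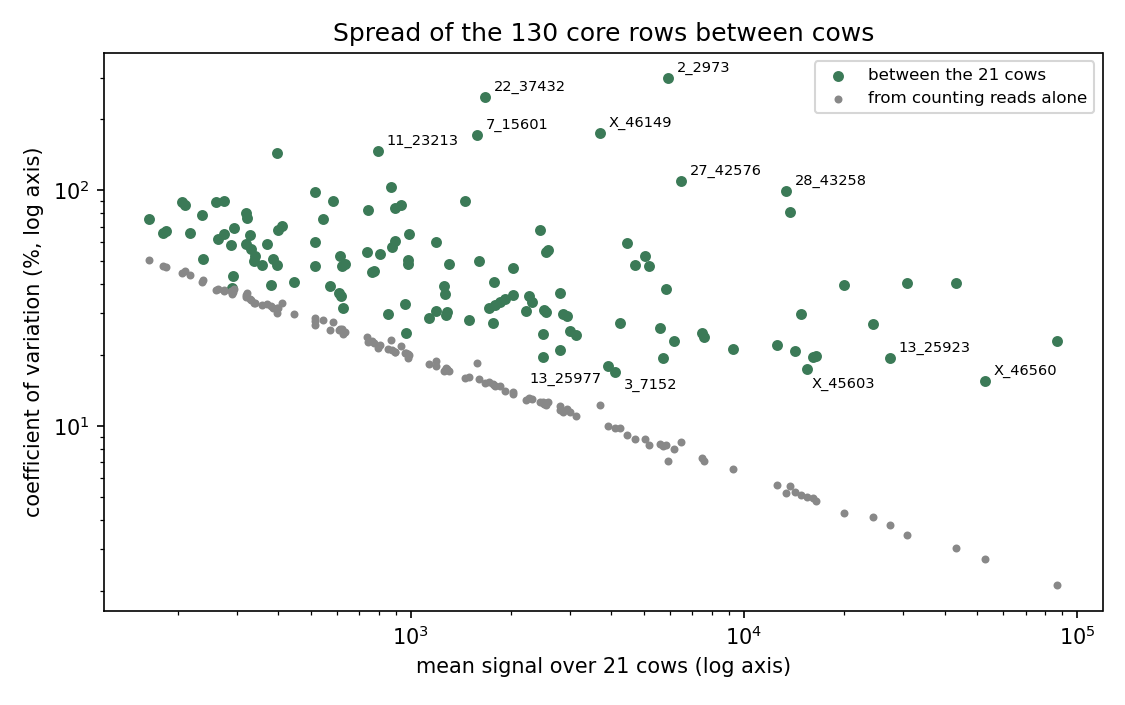
Green dots give each core row's coefficient of variation between 21 cows (%, log axis) against its mean signal (log axis), and grey dots the coefficient that read counting alone gives. X_46560 is lowest at 15.5% and 2_2973 highest at 298%, and every row's variance between cows exceeds its counting variance, by 1.03 times at the least.

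In the rows of widest spread, single cows lay far above the rest. Row 2_2973 (298%) read 959.9 to 2471 in healthy cows (median 1029.8), 620.7 to 1460.1 in subclinical cows (median 954.2) and 627.7 to 80110 in clinical cows (median 1171). Clinical 4 held 80110 and clinical 1 held 22973, while the other clinical cows lay within the range of the healthy and subclinical cows. The coefficient was 221% without clinical 4 and 37.3% without clinical 1 and clinical 4. Row 28_43258, picked after its values were seen, was also highest in clinical 4 (62686), followed by subclinical 6 (37177), against a healthy median of 10174.

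Row 22_37432 (247%) was at 441 to 1051 in healthy cows (median 529.6) and at 19393 in clinical 7, where the other clinical cows had at most 1882. Subclinical 4 had 3640, against a subclinical median of 593.2. Row 11_23213 (147%) reached 4867 in clinical 3, against at most 601 in the other clinical cows. Without clinical 3 its coefficient was 122%, and without clinical 7 that of 22_37432 was 99.3%. Rows X_46149 (175%) and 7_15601 (171%), both highest among healthy cows in healthy 7, kept a wide spread without that cow, at 156% and 189%. Row MT_46829, the only core row with a mitochondrial name, varied widely in every group, from 2523 to 30097 in healthy (median 4282), 1873 to 33541 in subclinical (median 15103) and 1435 to 29919 in clinical cows (median 14636). Its highest healthy cow was healthy 7, without which the healthy mean was 6378 in place of 9767.

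**Figure D4:**
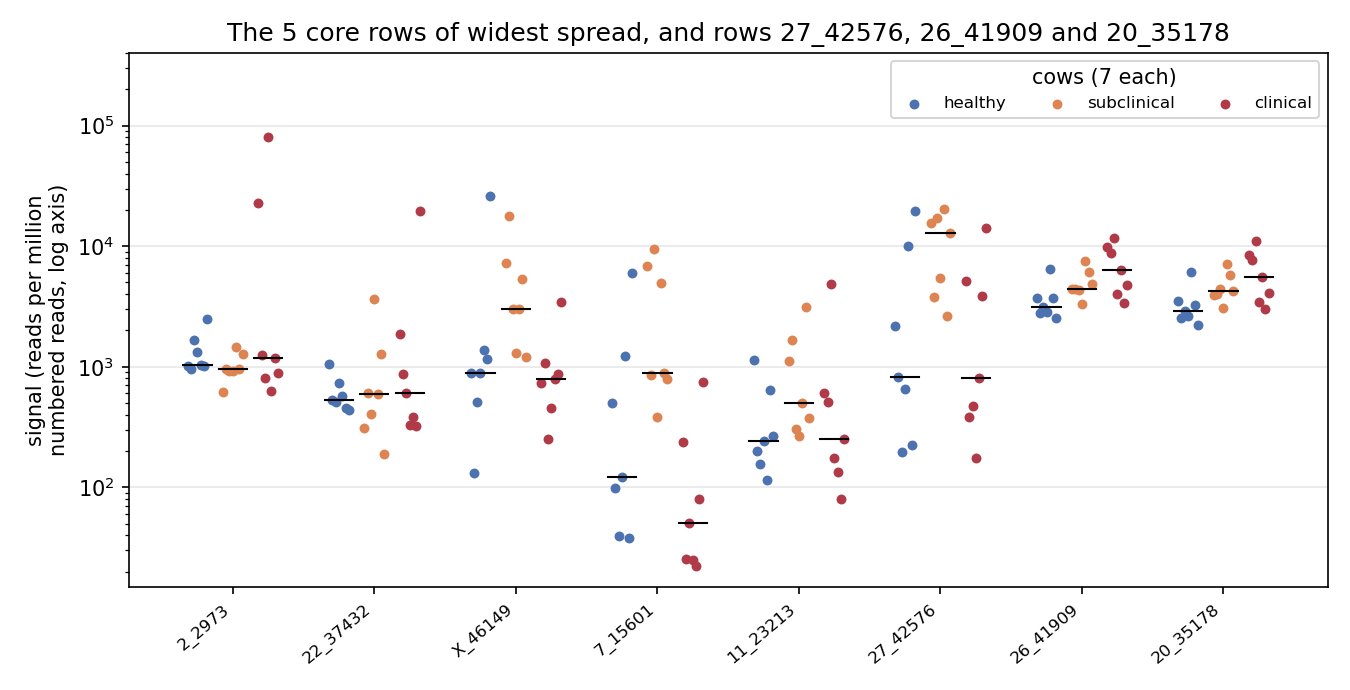
Each dot is 1 cow's signal (reads per 1000000 on the numbered scale, log axis), with a bar at each group's median. Shown are the 5 core rows of widest spread and 27_42576, 26_41909 and 20_35178. Single cows stand far above their group in 2_2973 (80110 in clinical 4) and 22_37432 (19393 in clinical 7), and the clinical dots of 7_15601 lie lowest, with a median of 50.2.

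Some core rows carried nearly the same values. No pair differed by at most 10% or 2 reads in all 21 libraries, and 2 pairs differed by at most 20% or 3 reads. Rows 26_41909 and 20_35178 held 3327 and 3009 reads, with a ratio between 0.988 and 1.16 in each library (median 1.10). Rows 19_34861 and 15_29766 held 9511 and 8365 reads, with a ratio between 1.07 and 1.203 (median 1.14). The rows of a pair carry different chromosome names, and with no sequence in the table it was not tested whether they share reads. The rows of a pair are counted singly in what follows, and their counts are not independent.

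Most core rows did not follow the known miRNAs' share of a library, a measure the rule did not use. Across the 21 cows, the median Spearman's rho with that share was 0.06 over the core. It was at least 0.5 in 13 core rows (10%) and in 75 of the 467 numbered rows tested (16.1%), a smaller share of the core than of all numbered rows. It was −0.5 or lower in 2 core rows (1.54%) and in 4 of the 467 (0.857%). The highest was 27_42576, at 0.87, with 0.82 in healthy, 0.36 in subclinical and 0.96 in clinical cows alone. Row 7_15601 followed with 0.75, but −0.36 in subclinical cows alone. Next were 6_12379 with 0.65 and X_46149 with 0.64; the latter had −0.82 in subclinical cows alone. These correlations are descriptions over points that share libraries and depth. Rows 27_42576 and 7_15601 also ran together, with rho 0.87 between their signals.

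Group differences were tested with limma on log2(signal + 1), fitted to the 598 rows whose signal reached 1 in 7 samples or more and adjusted over all of them by Benjamini-Hochberg. All 130 core rows were tested. A row above 0 in every cow cannot show the large changes that rows at 0 in a group show, so counts of calls inside and outside the core are not like for like. The 3 comparisons share groups and are not independent. A row is said to have risen or fallen only where its adjusted p was under 0.05. The median standard error of a core row's log2 change was 0.40, and the 95% interval of the change lay within 2-fold in both directions for 56, 55 and 55 of the 130 rows in the comparisons of clinical with healthy, subclinical with healthy and clinical with subclinical cows.

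Clinical against healthy cows asks what visible mastitis changes. No core row passed, and neither did any of the 598 rows (0%). At an unadjusted p under 0.05 there were 11 core rows (8.46%), with both rows of the pair 26_41909 and 20_35178 among them, and 37 of all rows (6.19%). edgeR's quasi-likelihood test on the recovered reads also called none (0%), with 11 core rows at an unadjusted p under 0.05. DESeq2 called 8 rows (1.34%), of which 2_2973 (log2 change 3.92, adjusted p = 0.00187) and 26_41909 (1.14, adjusted p = 0.0365) were core rows. For 2_2973, limma gave 1.11 (adjusted p = 0.846) and edgeR an adjusted p of 0.0684. Of the clinical cows, 2 exceeded its healthy mean and 5 lay below. Without clinical 1 and clinical 4 its clinical mean was 949, below the healthy mean of 1353.

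The core's median log2 change from healthy to clinical cows was −0.21, with 90 rows below 0 and 40 above, beside −0.12 over all rows tested. Scaling the numbered rows without 4_9843 shifted the median of all rows to 0.04 and that of the core to 0.00, with 65 rows on each side. With edgeR, 72 rows were above 0 and 58 below.

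In 2 rows, the clinical and healthy groups did not overlap: 17_32195 and 2_3123. These were the only such rows among the 598 (0.334% lower, 0% higher). Row 17_32195 read 9268 to 12004 in healthy cows (median 10856) and 5783 to 8730 in clinical cows (median 7414). Every clinical cow lay below every healthy cow, with means of 7389 ± 923 against 10516 ± 950 (SD, n = 7 each) and limma put the log2 change at −0.51 (SE 0.15, adjusted p = 0.533). Row 2_3123 read 2408 to 3343 in healthy cows (median 3069) and 1073 to 2309 in clinical cows (median 1863), a log2 change of −0.78 (SE 0.27). Scaled without 4_9843, these changes were −0.30 and −0.57.

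The other rows of smallest p were lower in clinical cows in 2 cases. Row 1_2735 averaged 27431 ± 6408 in healthy and 18897 ± 3209 in clinical cows, and every clinical cow lay below the healthy mean. Row 21_37337 averaged 54192 ± 18976 and 32597 ± 13376, with a log2 change of −0.78 (SE 0.26). Neither passed the test (limma adjusted p = 0.533 for both).

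The pair 26_41909 and 20_35178 was higher in clinical cows. Row 26_41909 read 2560 to 6408 in healthy cows (median 3143), 3295 to 7574 in subclinical cows (median 4433) and 3381 to 11665 in clinical cows (median 6322). Of the clinical cows, 6 of 7 exceeded the healthy mean, and 1 healthy cow, healthy 5, lay above the clinical median. Its limma log2 change from healthy to clinical cows was 0.88 (SE 0.28, adjusted p = 0.533), and edgeR's was 1.25 (adjusted p = 0.0684). For 20_35178 limma gave 0.83 (SE 0.29) and edgeR 1.199 (adjusted p = 0.0773). Both passed edgeR's test without healthy 5 (adjusted p = 0.0261 for each). Row 13_26719 was next, at 2333 ± 519 in healthy and 2868 ± 488 in clinical cows, with a limma log2 change of 0.31 (adjusted p = 0.840).

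**Figure D5:**
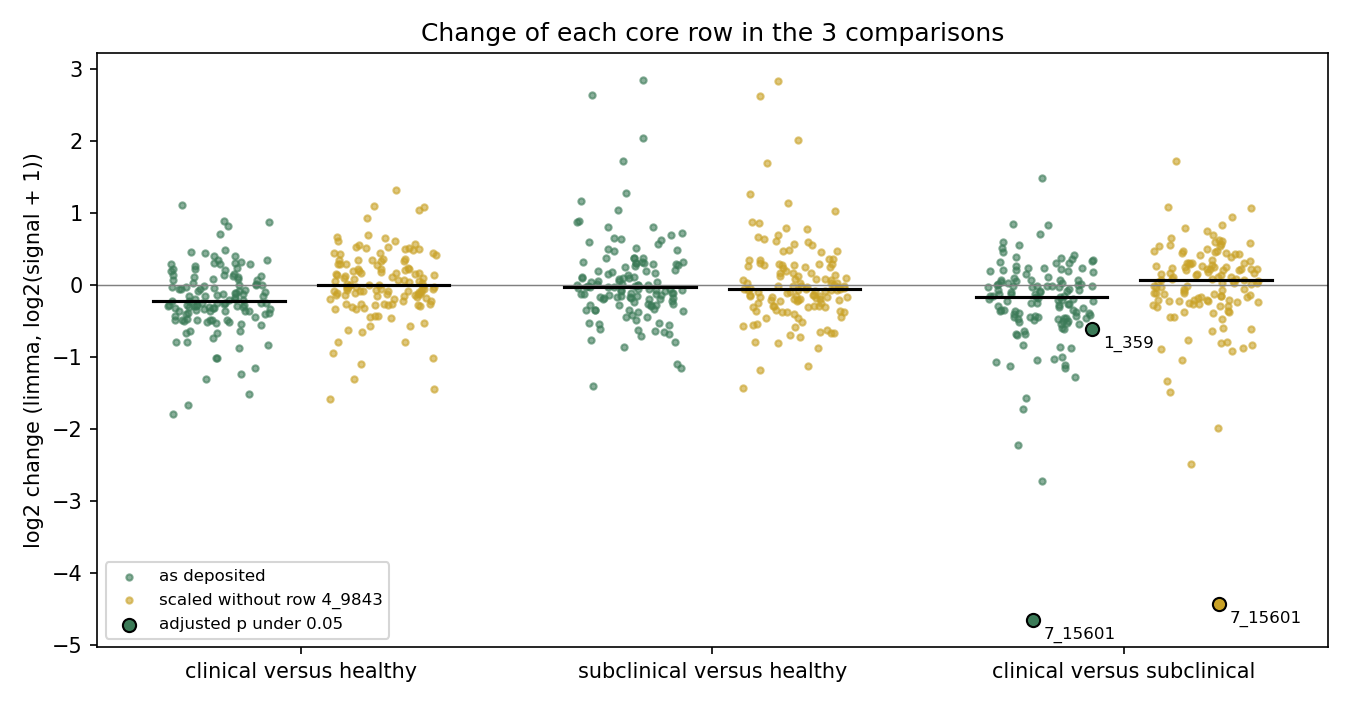
Each dot is a core row's limma log2 change in 1 of the 3 comparisons, with signals as deposited (green) and with numbered rows scaled without row 4_9843 (gold), and black bars give the medians. Of the deposited values, only 7_15601 (−4.64) and 1_359 (−0.60) passed the adjusted p of 0.05, both in clinical against subclinical cows. The median moves from −0.21 to 0.00 in clinical against healthy cows when 4_9843 is left out of the total.

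Subclinical against healthy cows asks what changes without visible disease. No core row passed, while 12 of the 598 rows did (2.01%). At an unadjusted p under 0.05 there were 8 core rows (6.15%) and 80 of all rows (13.4%). edgeR called 8 rows (1.34%) and DESeq2 10 (1.67%), with no core row among either. With edgeR, 6 core rows had an unadjusted p under 0.05. The core's median log2 change was −0.03, with 60 rows above 0 and 70 below, beside 0.26 over all rows tested. On 1 scale for known and numbered rows together, these medians were −0.51 and 0.01, with 109 core rows below 0. On that scale 35 core rows (26.9%) and 154 of all rows (25.8%) had an unadjusted limma p under 0.05, and no core row passed. The groups overlapped in all 130 core rows; 2 of the 598 rows were higher in subclinical cows without overlap (0.334%) and none lower (0%).

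The row of smallest p, 6_12507, read 33.1 to 432 in healthy cows (median 88.3) and 201 to 815.5 in subclinical cows (median 494.8). Every subclinical cow exceeded the healthy mean, although the groups overlapped. The log2 change was 2.04 (limma, SE 0.73, adjusted p = 0.172). Row 27_42576 read 196.4 to 19417 in healthy cows (median 827.5) and 2615 to 20168 in subclinical cows (median 12905), a log2 change of 2.64 (SE 1.02, adjusted p = 0.198). Its highest healthy cow was healthy 7, the healthy library with the highest known share, and the part of that share in the difference was not tested.

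Leaving out healthy 7 brought 2 core rows past the limma test, 7_15601 and X_46149. These 2 rows ran together across the 21 cows (Spearman's rho 0.78), so their calls are not independent. Row 7_15601 then changed by 3.61 (adjusted p = 0.0378, against 2.85 and 0.198 with all cows), and X_46149 by 2.48 (adjusted p = 0.0289). edgeR without healthy 7 called X_46149 alone among core rows (adjusted p = 0.017). Healthy 7 read 6002 for 7_15601 and 26214 for X_46149, against at most 1221 and 1373 in the other healthy cows.

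Lower in subclinical cows, but not past the test, were 2_3123 at 2070 ± 988 against 2943 ± 326 in healthy cows, NKLS02000910.1_47025 at 158.9 ± 159.9 against 355 ± 207.5, and 2_3531 at 285 ± 228.5 against 429.8 ± 146 (SD, n = 7 each). Their limma adjusted p-values were 0.258, 0.306 and 0.384. Row 2_3123 was lower than in healthy cows in both disease groups, without passing in either, and its log2 change from subclinical to clinical cows was −0.14 with a 95% interval from −0.71 to 0.42.

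Clinical against subclinical cows asks how the forms of mastitis differ. Of the 598 rows, 24 passed (4.01%), 23 of them lower in clinical cows (3.85%) and 1 higher (0.167%). Of the 130 core rows, 2 passed, both lower: 7_15601 and 1_359. At an unadjusted p under 0.05 there were 10 core rows (7.69%) and 74 of all rows (12.4%). edgeR called 35 rows (5.85%), of which 7_15601 and 2_2973 were core rows. DESeq2 called 37 (6.19%), including 7_15601, 1_359 and 2_2973.

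The core's median log2 change from subclinical to clinical cows was −0.16, with 88 rows below 0 and 42 above, beside −0.37 over all rows tested. Its sign depended on the scaling. It was 0.07 for numbered rows scaled without 4_9843, where the median of all rows was −0.19, and 0.13 with edgeR. On 1 scale for known and numbered rows together it was 0.25, with 90 core rows above 0 and 40 below. The median of all rows was then −0.17.

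Row 7_15601 was the largest change of the core. It read 383 to 9430 in subclinical cows (median 883.5), 22.4 to 751 in clinical cows (median 50.2) and 37.6 to 6002 in healthy cows (median 121.5). In clinical libraries these were 1 to 21 reads. A single read was worth 22.4 to 35.8 there and 35.3 to 51.0 in subclinical libraries. Every clinical cow lay below the subclinical mean, and 1 clinical cow, clinical 7, lay within the subclinical range. The mean fell from 3436 ± 3625 to 169.9 ± 267 (SD, n = 7 each), 20.2-fold, and limma put the log2 change at −4.64 (SE 1.09, adjusted p = 0.0129). edgeR gave −4.19 (adjusted p = 0.0189) and DESeq2 an adjusted p of 0.000972.

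The fall of 7_15601 passed limma's test with any 1 of the 21 cows left out, at an adjusted p of at most 0.0475. With edgeR it passed in 16 of 21 such fits and not without subclinical 3, clinical 2, clinical 4, clinical 5 or clinical 6, at an adjusted p of at most 0.0568. The known share of reads was also lower in clinical cows (35.2% in subclinical and 15.9% in clinical cows on average). Within subclinical cows alone, its rho with 7_15601 was −0.36. Hepatocyte miR-122 differed in the same direction between the groups, at 0.0628 to 2.71% of known reads in subclinical and 0 to 0.237% in clinical cows. The median of endothelial miR-126 went the other way, at 15.5 and 23.3%, and those of the other marker lists were lower in clinical cows. Clinical libraries held fewer known reads, with a median of 3388 against 15960 in subclinical libraries. The part of the known share or of miR-122 in the fall was not tested. Marker miRNAs of mammary epithelium, miR-141 and miR-200a to miR-200c, were read in 5 healthy, 7 subclinical and 3 clinical libraries. They took at most 0.210% of known reads in healthy, 0.0845% in subclinical and 0.148% in clinical cows.

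Row 1_359 read 6890 to 11918 in subclinical cows (median 8869), 4681 to 7516 in clinical cows (median 6008) and 6355 to 8473 in healthy cows (median 7105). Every clinical cow lay below the subclinical mean, although the ranges overlapped. The mean fell from 9195 ± 2007 to 6003 ± 1022 (SD, n = 7 each), which limma put at −0.60 on the log2 scale (SE 0.16, adjusted p = 0.0380). The call was lost with edgeR (−0.32, adjusted p = 0.321) and with numbered rows scaled without 4_9843 (−0.37, adjusted p = 0.309). It held in 12 of the 21 fits that left out 1 cow and was lost without subclinical 1, 2, 3, 4 or 7 or clinical 3, 4, 5 or 6, at an adjusted p of at most 0.0893.

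Row 2_2973 passed the count tests and not limma's. Its mean was 1016 ± 274 in subclinical and 15404 ± 29691 in clinical cows, but the medians were 954.2 and 1171. edgeR gave a log2 change of 4.47 (adjusted p = 0.00816), DESeq2 4.33 (adjusted p = 4.6e-05) and limma 1.49 (SE 0.81, adjusted p = 0.471). The clinical mean was 4620 without clinical 4, where edgeR gave 2.62 (adjusted p = 0.0356), and 949 ± 258 without clinical 1 and clinical 4, below the subclinical mean.

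Other rows of smallest p did not pass. Row 1_2735 averaged 26958 ± 6365 in subclinical and 18897 ± 3209 in clinical cows, with a limma log2 change of −0.50 (adjusted p = 0.127), and its clinical mean was below those of both other groups. The groups overlapped in all 130 core rows, while 10 of the 598 rows were lower in clinical cows without overlap (1.67%) and none were higher (0%). Rows 7_14686 and 4_7911 were higher in clinical cows, at 1186 ± 760 against 698 ± 448 and at 1471 ± 635 against 1004 ± 386, with limma adjusted p-values of 0.471 and 0.503. Row X_46149 read 1208 to 17701 in subclinical cows (median 3012) and 250.9 to 3471 in clinical cows (median 784.6). Its limma log2 change of −2.21 (adjusted p = 0.183) passed only without healthy 7 among the fits that left out 1 cow (adjusted p = 0.0482).

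None of the 10 most abundant rows passed in any comparison. Their limma log2 changes ran from −0.78 to 0.00 in clinical against healthy cows, from −0.35 to −0.03 in subclinical against healthy cows and from −0.50 to 0.35 in clinical against subclinical cows (lowest adjusted p = 0.127). In clinical against healthy cows 9 of the 10 were below 0, and 6 with numbered rows scaled without 4_9843. Over all 130 rows the changes ran from −1.79 to 1.11, −1.40 to 2.85 and −4.64 to 1.49. More than 2-fold changes by limma numbered 9, 10 and 13 of the 130 rows in the 3 comparisons.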

How the data were processed

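The authors deposited 1 table of signal values in reads per 1000000, scaled separately for known and numbered rows, as its values show. The labels' protocols name the miRNeasy Mini kit, 3 µg of total RNA and the TruSeq small RNA kit. Bowtie, edgeR and the ARS-UCD1.2 build are named without a role, per the submitters' processing notes; trimming, counting and the rule that made numbered rows are not given in the sources used here. Each value above 0 (10115 of 10115) was a whole multiple of what 1 read is worth in its library and block (tolerance 0.05 reads), which gave back whole reads. No 2 libraries agreed within sampling noise: over numbered reads, chi-square was at least 5.87 per degree of freedom. Replicate 7 cows stand in columns numbered 9 (healthy), 8 (subclinical) and 10 (clinical).

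limma 3.58.1 (R 4.3.3) with an intensity trend was fitted to log2(signal + 1), two-sided, with a mean for each of the 3 groups over the 21 samples (18 residual degrees of freedom). It took the 598 rows whose signal reached 1 in 7 or more samples. edgeR 4.0.16 and DESeq2 1.42.0 were run on recovered reads with size factors per block. limma and edgeR were tested on simulated data, and DESeq2 was not. A single numbered read was worth 22.4 to 88.3, so the added 1 hardly moved core rows, which have no value of 0. The core's median log2 change from healthy to clinical cows was −0.215, −0.215 and −0.213 with 0.5, 1 and 10 added. For rows with values of 0, a step from 0 to 1 read is large on this scale. Summaries used pandas 2.3.3 and numpy 2.4.6 in Python 3.11.15, and figures matplotlib 3.10.9. Counting error covers reads only, since PCR copies were not told apart.

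The members and the lists were chosen with earlier results of these data known. Named rows are the 10 of highest mean; per comparison the passing rows filled to 3 each way by p; the 5 of lowest and 5 of highest coefficient of variation; 3 just inside and 3 just outside the rule; and rows nearly equal to these. MT_46829, 28_43258, NKLS02002111.1_47339 and X_46149 in the comparisons were named after their values were seen. Alternatives were other pseudocounts (0.5 and 10), filters, scalings, tools, sample sets, a replicate block and leaving out each cow.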

Additional observations from a re-analysis of the deposited data

Results flagged for a closer look

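In 16 of 99 groups tested (32 named rows and the core share, each in 3 groups of 7), the highest or lowest cow lay farther from its nearest neighbour than 0.568 of the group's range, Dixon's 95% value for 7 samples. Chance flags about 1 in 20 groups, but that rate does not hold for rows picked for their spread: 9 of the 16 lay in the 5 rows of highest coefficient of variation. The 16 came from 9 cows, 4 from healthy 5, 4 from clinical 7, 2 from healthy 7 and 1 each from clinical 3, clinical 4, subclinical 2, subclinical 3, subclinical 4 and subclinical 5.

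In healthy 5, 21_37337 had a signal of 95125 (next highest 57492), 26_41909 had 6408 (next 3725), 20_35178 had 6103 (next 3490) and 19_34861 had 13006, the lowest of its group (next lowest 17112). Rows 26_41909 and 20_35178 are nearly equal in every library, so their flags are not independent. In clinical 7, 22_37432 had 19393 (next 1882), 27_42576 had 14026 (next 5123), X_46149 had 3471 (next 1070.1) and 7_15601 had 751 (next 235.2). In healthy 7, X_46149 had 26214 (next 1373) and 7_15601 had 6002 (next 1221). Both healthy 7 and clinical 7 held the highest known share of reads in their groups, at 30.4% and 52.8%; its part in these values was not tested.

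Row 2_2973 had 80110 in clinical 4 (next 22973), and 11_23213 had 4867 in clinical 3 (next 601). Among subclinical cows, X_46149 had 17701 in subclinical 2 (next 7182), 22_37432 had 3640 in subclinical 4 (next 1272), and NKLS02000910.1_47025 had 509.7 in subclinical 3 (next 176.7). Row 25_40739 had 11955 in subclinical 5, the lowest of its group (next lowest 15605).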

How the results depend on the processing

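Of 700 recomputed values of 20 single-row results, 675 kept direction and side of the threshold and none reversed. A call was lost in 19 (all 1_359) and gained in 6. edgeR's fits with 1 cow left out are not among the 700. They lost 7_15601 in clinical against subclinical cows without subclinical 3 or clinical 2, 4, 5 or 6. Core rows past the test in clinical against healthy cows numbered 0 under every limma alternative and 2 with DESeq2; with edgeR, 0 to 2 when 1 cow was left out (2 without healthy 5, clinical 6 or clinical 7). In subclinical against healthy cows the count was 0 except 2 without replicate 7 of all groups and 0 to 2 with 1 cow left out (2 without healthy 7; edgeR 0 to 1). In clinical against subclinical cows it was 2, but 3 with DESeq2 (2_2973, 7_15601 and 1_359), 2 with edgeR (2_2973 and 7_15601, with 1_359 lost) and 1 with no filter, with a signal of at least 1 in all 21 samples, without 4_9843 in the scaling, with median-ratio scaling, with 1 scale for both blocks and with no intensity trend, each keeping 7_15601; it was 1 to 3 with 1 cow left out, by limma and by edgeR (3 without healthy 7). With only the 2 groups compared and without replicate 7 of all groups, X_46149 took the place of 1_359. The cause was not tested. Over all rows, calls numbered 12 in subclinical against healthy cows (3 with a signal of at least 1 in all 21 samples, 5 with numbered rows alone, 23 without replicate 7, 26 without healthy 7) and 24 in clinical against subclinical cows (1 with a signal of at least 1 in all 21 samples, 37 with DESeq2, 23 without replicate 7, 25 without healthy 7, 14 without subclinical 1 or subclinical 3). The labels pair no cows by replicate number. Deviations of same-numbered cows correlated from −0.12 to 0.31 (highest for healthy 7 with clinical 7), which cannot show whether they were paired. With a replicate block the count was 1 in clinical against subclinical cows (1_359 lost, limma adjusted p = 0.0518) and 0 in the other comparisons. The core share was 81.4, 77.2 and 84.1% without 4_9843 in the total and 49.9, 34.8 and 42.9% of all reads in healthy, subclinical and clinical cows; with 1 cow left out its means were 55.5 to 57.2, 52.9 to 54.3 and 50.4 to 51.4%. Nearly equal pairs went from 0 to 2 at 20% or 3 reads. The median coefficient of variation was 44.2 to 47.6% under its alternatives. In the shallowest library, with 13033 numbered reads, the weakest rows rest on few reads.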
